A study of Mus musculus with 6 samples.

Results

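The genes described here code for the filaments and tubules of the neuronal cytoskeleton and for the nuclear protein commonly used to mark neurons. The set holds 10 genes, named by their place in this structure. They are the intermediate filament subunits Nefl, Nefm, Nefh and Ina, the microtubule-associated proteins Map2, Mapt, Map1a and Map1b, the neuronal tubulin Tubb3, and the splicing factor Rbfox3. Of these, 9 had a value in all 6 libraries, among 11750 genes with a value in all libraries and 15441 with a value in at least 1. Tubb3 had no value and was not analysed here.

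The libraries were made from the whole cortex on the side of the operation in male C57/BL6J mice of 6 to 8 weeks. Stroke was induced by photothrombosis, in which the dye Rose Bengal is injected and the sensorimotor cortex is lit through the skull so that its vessels clot. The 5 stroke groups were taken 1, 3, 7, 14 and 28 days after the operation. Sham-operated control mice were taken on day 7 after the operation. The RNA of 3 mice was pooled in each group, so that there was 1 library per group and no replicate error for any value. All 5 comparisons use the same control library.

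Values are FPKM, in which sequenced fragments are scaled to the length of the transcript and to the size of the library, so that levels of different genes can be compared. They were deposited for single transcript starts, transcript ends and splicing events, from 81985 events on day 14 to 97289 on day 7. The value of a gene is the largest of its summed starts, its summed ends and any single event. A gene without an event is called not listed.

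Neurofilaments are heteropolymers of a light, a medium and a heavy subunit, in the adult brain joined by alpha-internexin, and they fill large axons and set their calibre. Microtubules run through axons and dendrites, where MAP2 is held mainly in dendrites and tau mainly in axons. Both bind tubulin through short repeats, and the splicing of their messages decides how many repeats and how long a projecting arm the protein has.

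The sequences below are those on which the transcript forms described later turn. All were read from the GRCm38 reference (mm10, the build of the deposited coordinates), and the exons lie wholly in coding sequence of the GENCODE M21 transcripts that contain them. The first is the 93-nt exon of Map2 at chr1:66431527-66431619 (plus strand), which was almost absent from 5 libraries and abundant on day 3. It is in lower case throughout, since the whole exon is included or skipped.
Map2 93-nt exon: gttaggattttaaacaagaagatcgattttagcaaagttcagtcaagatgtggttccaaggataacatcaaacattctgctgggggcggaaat

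The exon of Rbfox3 at chr11:118496351-118496531 (minus strand) was listed in a form of 40 nt and in a form of 181 nt, and the balance of these forms moved most on day 1. Capitals mark the 141 bases at the 5′ end that are present in the long form alone.
Rbfox3 181-nt exon: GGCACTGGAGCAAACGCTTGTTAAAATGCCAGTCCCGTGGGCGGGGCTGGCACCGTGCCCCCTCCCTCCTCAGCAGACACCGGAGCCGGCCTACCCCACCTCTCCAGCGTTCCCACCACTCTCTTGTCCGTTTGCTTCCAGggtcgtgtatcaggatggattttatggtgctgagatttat

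The most upstream start of Map2 was listed at base 66175273 of chromosome 1, which is base 195 of the RefSeq promoter window at chr1:66175079-66175378 (plus strand, GRCm38.p6). It is shown because the FPKM of this start differed between libraries by far more than that of the gene. Capitals mark the motif GGGCGG, which was searched on both strands.
Map2 upstream promoter: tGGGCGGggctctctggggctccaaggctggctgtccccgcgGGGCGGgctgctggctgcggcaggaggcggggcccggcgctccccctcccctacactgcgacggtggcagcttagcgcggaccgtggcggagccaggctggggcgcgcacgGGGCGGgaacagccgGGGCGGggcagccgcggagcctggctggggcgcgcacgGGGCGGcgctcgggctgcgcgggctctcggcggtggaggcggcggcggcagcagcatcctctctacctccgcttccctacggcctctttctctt

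The window holds 5 copies of the motif. Of the 10 genes, 6 had a window of this kind in the RefSeq table (Ina, Map1a, Map1b, Map2, Rbfox3 and Tubb3). GGGCGG, on either strand, was in at least 1 window of 5 of these 6 genes and in 35.7% of all 32851 windows. TATAAA was in at least 1 window of 1 of the 6 genes, Map1b, and in 13.6% of all windows. The 6 were counted as genes and the background as single windows, so the shares are not in the same unit. These are letters in a window, not measured sites.

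Nefl (ENSMUSG00000022055, chr14:68083863-68089095, plus strand) codes for the light subunit, on which the other subunits assemble, and its message was the most abundant of the set in 5 of the 6 libraries. Nefl was at 133 FPKM in the control and at 126, 99.7, 107, 106 and 122 FPKM in the 5 stroke libraries in order of time. All 5 stroke libraries were below the control library, with the lowest value on day 3, where the control was 1.33-fold higher.

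Nefm (ENSMUSG00000022054, chr14:68082590-68124846, minus strand) codes for the medium subunit, and an annotated transcript of it spans Nefl on the opposite strand. Nefm was at 58.6 FPKM in the control and at 56.4, 44.8, 48.0, 48.2 and 46.9 FPKM from day 1 to day 28. Its order was close to that of Nefl until day 14, but on day 28 Nefm was still 1.25-fold below the control while Nefl was 1.09-fold below it. The ratio of Nefl to Nefm was 2.21 to 2.27 in the control and until day 14, and 2.60 on day 28.

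Nefh (ENSMUSG00000020396, chr11:4938754-4948064, minus strand) codes for the heavy subunit, whose long phosphorylated tail projects from the filament. Nefh was the least abundant of the 9 genes in every library, at 13.6 FPKM in the control and 13.8, 10.9, 12.1, 10.3 and 12.7 FPKM from day 1 to day 28. The day 7 value includes 0.445 FPKM from a locus on the opposite strand, without which it was 11.6 FPKM.

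Ina (ENSMUSG00000034336, chr19:47014698-47025327, plus strand) codes for alpha-internexin. Its levels were 48.2 FPKM in the control and 59.0, 41.3, 41.7, 50.2 and 46.4 FPKM from day 1 to day 28. Ina was above the control on day 1 (log2 ratio 0.29, the highest of the set at that day) and next to it on day 14, where the log2 ratio was 0.06 as deposited and -0.05 with the median of all genes set to 0.

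The mixture of subunits moved less than the total. Summed FPKM of the 4 subunits was 253 in the control, 255 on day 1, 197 on day 3, 209 on day 7, 215 on day 14 and 228 on day 28. Within this sum Nefl made up 49.4% to 53.5%, Nefm 20.6% to 23.1%, Nefh 4.79% to 5.78% and Ina 19.0% to 23.3%. The highest share of Nefh, on day 7, was 5.58% without the opposite strand. The highest over the lowest library was 1.31-fold to 1.43-fold for the 4 subunits, against a median of 1.59-fold over the 10169 genes with at least 1 FPKM in all libraries.

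**Figure D1:**
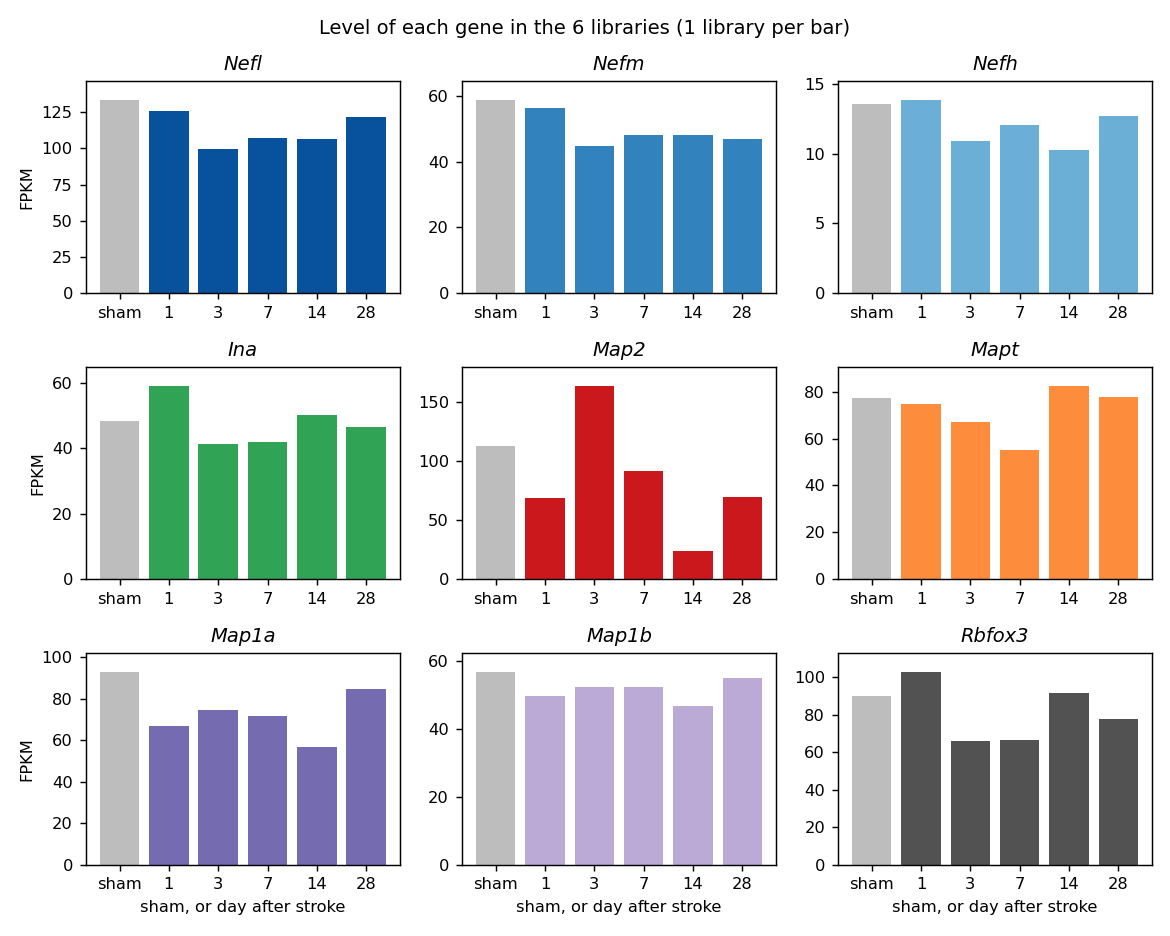
FPKM of 9 genes in 6 libraries, each bar 1 library made from the pooled RNA of 3 mice; grey bars are the sham control and coloured bars the days after stroke, on a linear scale from 0 that differs between panels. Map2 ranges from 23.7 FPKM on day 14 to 164 FPKM on day 3, while the subunits of the neurofilament stay within 1.43-fold.

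Map2 (ENSMUSG00000015222, chr1:66175273-66442583, plus strand) codes for the main microtubule-associated protein of dendrites. It was at 113 FPKM in the control, 68.4 on day 1, 164 on day 3, 91.7 on day 7, 23.7 on day 14 and 69.5 on day 28. The day 3 library was above the control and the other 4 stroke libraries were below it. The control was 1.65-fold higher than day 1, 4.77-fold higher than day 14 and 1.63-fold higher than day 28. The highest library was 6.90-fold above the lowest, a span that 0.590% of the 10169 genes exceeded. Map2 fell from the second place of the set by FPKM in the control to place 8 on day 14.

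Mapt (ENSMUSG00000018411, chr11:104231390-104332090, plus strand) codes for tau, which binds microtubules in axons. Mapt was at 77.4 FPKM in the control and at 74.9, 67.1, 55.2, 82.4 and 77.9 FPKM from day 1 to day 28. Its lowest library was day 7, where the control was 1.40-fold higher, and days 14 and 28 were level with or slightly above the control. The log2 ratios at these last days, 0.09 and 0.01, were -0.02 on both days when the median of all genes was set to 0.

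Map1a (ENSMUSG00000027254, chr2:121289600-121310832, plus strand) codes for a large protein that binds microtubules in mature neurons. It was at 93.0 FPKM in the control and at 66.9, 74.4, 72.0, 56.7 and 84.6 FPKM from day 1 to day 28. All stroke libraries were below the control, and on day 14 the control was 1.64-fold higher.

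Map1b (ENSMUSG00000052727, chr13:99421446-99516540, minus strand) codes for the related protein that is prominent in growing axons. Its values were 56.9 FPKM in the control and 49.9, 52.5, 52.5, 46.8 and 55.0 FPKM from day 1 to day 28. Map1b varied least of the set, with 1.22-fold between its highest and lowest library. Of the 10169 genes, 5.44% varied less.

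Rbfox3 (ENSMUSG00000025576, chr11:118489762-118911597, minus strand) codes for NeuN, the antigen by which neuronal nuclei are counted, which is itself a splicing factor. Rbfox3 was at 89.9 FPKM in the control and at 103, 66.1, 66.8, 91.5 and 77.9 FPKM from day 1 to day 28. Days 3 and 7 were the lowest, with the control 1.36-fold and 1.35-fold higher, and day 14 was level with the control. In cortex RNA, fewer neurons and less RNA per neuron cannot be told apart, for Rbfox3 or for any other gene here.

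Set against the control on the scale of log2((FPKM + 0.1)/(control FPKM + 0.1)), the median of the 9 genes was -0.06 on day 1, -0.31 on day 3, -0.30 on day 7, -0.28 on day 14 and -0.13 on day 28. Over all genes compared, which had at least 1 FPKM in either library, the median was 0.01, 0.03, 0.03, 0.10 and 0.03. Ratios below 0 were found for 6, 8, 9, 6 and 8 of the 9 genes, and for 48.5%, 47.1%, 46.8%, 41.8% and 46.2% of all genes. The genes thus lay mostly on the lower side on days 3, 7 and 28, and on day 7 without exception. The shift was small beside the spread of all genes, since Map2 was the only member outside their 5th to 95th percentiles, on days 14 (-0.96 to 1.25) and 28 (-0.66 to 0.78).

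**Figure D2:**
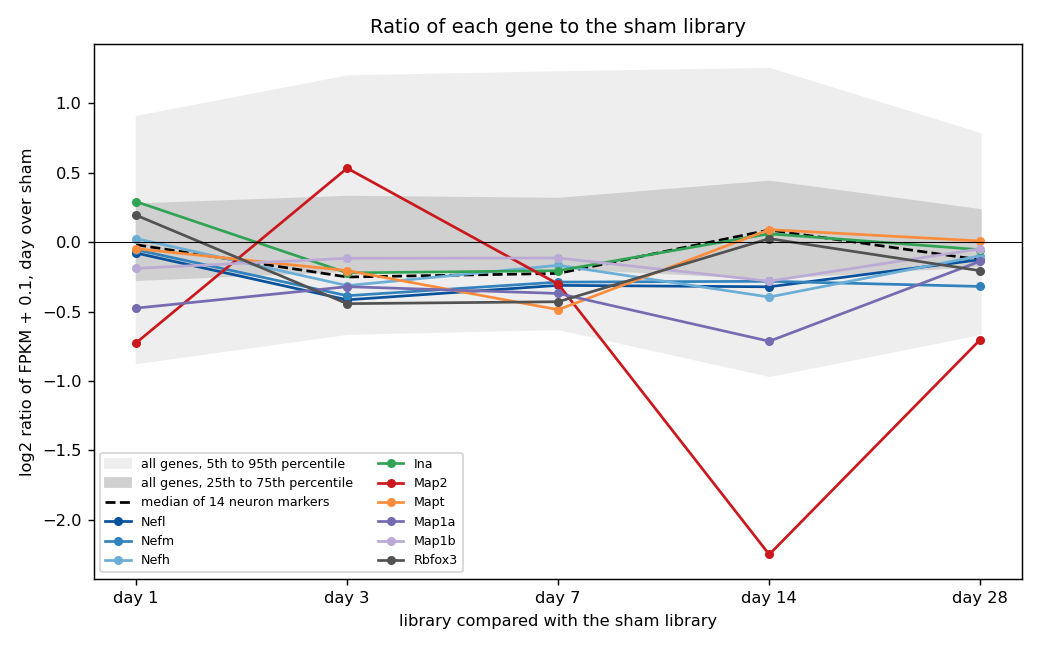
Log2 ratio of FPKM + 0.1 to the sham library (y axis) for each day (x axis), 1 line per gene, over the middle ranges of all genes in grey and the median of 14 neuron markers as a dashed line. Map2 runs from 0.53 on day 3 to -2.25 on day 14, and the other 8 genes stay between -0.71 and 0.29.

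Past a 1.5-fold difference, 1 of the 9 genes was lower on day 1 (Map2, log2 ratio -0.73), against 10.4% of the 11545 genes compared at that day. On day 3 it was 0 of 9, against 6.25% of 11810 genes, and on day 7 it was 0 of 9, against 5.77% of 11830 genes. On day 14 Map2 (-2.25) and Map1a (-0.71) were lower, 2 of 9 against 11.4% of 11557 genes. On day 28 it was again Map2 alone (-0.70), against 6.29% of 11583 genes. With so few genes, 0 to 2 of 9 cannot be set apart from these shares.

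No gene of the set was higher by 1.5-fold on any day, where 10.6%, 14.7%, 14%, 17.6% and 8.33% of all genes were, in order of time. Map2 on day 3 came nearest, with a log2 ratio of 0.53 that 16.2% of genes exceeded, and scaling to the upper quartile brought it to 0.59, just past 1.5-fold. Past 2-fold, Map2 on day 14 was the only call, 1 of 9 against 4.66% of all genes, and its ratio was lower than that of 98.9% of genes. On the other days 0 of 9 were lower by 2-fold, against 3.53% on day 1, 2.1% on day 3, 1.77% on day 7 and 2.11% on day 28. None was higher by 2-fold, against 4.13%, 7.15%, 7.08%, 7.69% and 3% of all genes in order of time.

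The set was put beside 14 other neuronal messages, those of synaptic and surface proteins, neuronal enzymes, RNA-binding proteins and transmitter synthesis and transport. Of 15 such markers looked up, 14 had a value in all libraries, with a summed level of 3623 FPKM in the control and 2642 to 3550 FPKM after stroke. Their median log2 ratio was -0.02, -0.25, -0.23, 0.09 and -0.13 from day 1 to day 28. The medians of the cytoskeletal genes and of these markers differed by less than 0.1 on every day but day 14. On day 14 the subunits Nefl, Nefm and Nefh were lower than the marker median by 0.41, 0.37 and 0.48, while Ina, Mapt and Rbfox3 were within 0.1 of it. Neither the members nor the markers were corrected for transcript length here, although length moved with the ratios of all genes on day 14, as described below. The part of length in these differences was not tested. The markers were themselves spread on day 14, from Slc17a7 (-0.89), which loads glutamate into vesicles, to Thy1 (0.57), a surface protein of projection neurons.

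Transcript length moved with the ratios in all genes on day 1 and day 14, where Spearman's rho of log2 ratio and length of the longest annotated transcript was -0.25 over 11527 genes and -0.40 over 11541 genes, and it was between -0.09 and 0.01 on the other days. Over the 9 members rho was -0.78, 0.60, 0.12, -0.47 and 0.10 from day 1 to day 28, a description of 9 points from shared libraries. The set spans 3150 nt (Rbfox3) to 11825 nt (Map1a), and its longest transcripts are those of Map1a, Map1b, Map2 and Mapt. In the length bins of Map1a and Map1b, each a twentieth part of all genes, the median log2 ratio was -0.29 on day 1 and -0.32 on day 14.

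Measured against the median of genes of like length, Map1b differed by 0.10 on day 1 and 0.04 on day 14. Map1a differed by -0.18 and -0.39, so that it no longer passed 1.5-fold on day 14. Map2 differed by -0.59 and -2.03. The neurofilament subunits are of middling length, 3240 to 3994 nt, in bins whose medians lay between -0.04 and 0.08 on these days, and Nefl, Nefm and Nefh still differed from their bins on day 14 by -0.40, -0.34 and -0.41. On days 3 and 7, where length and ratio hardly moved together, the length-corrected median of the set was -0.35 and -0.31.

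**Figure D3:**
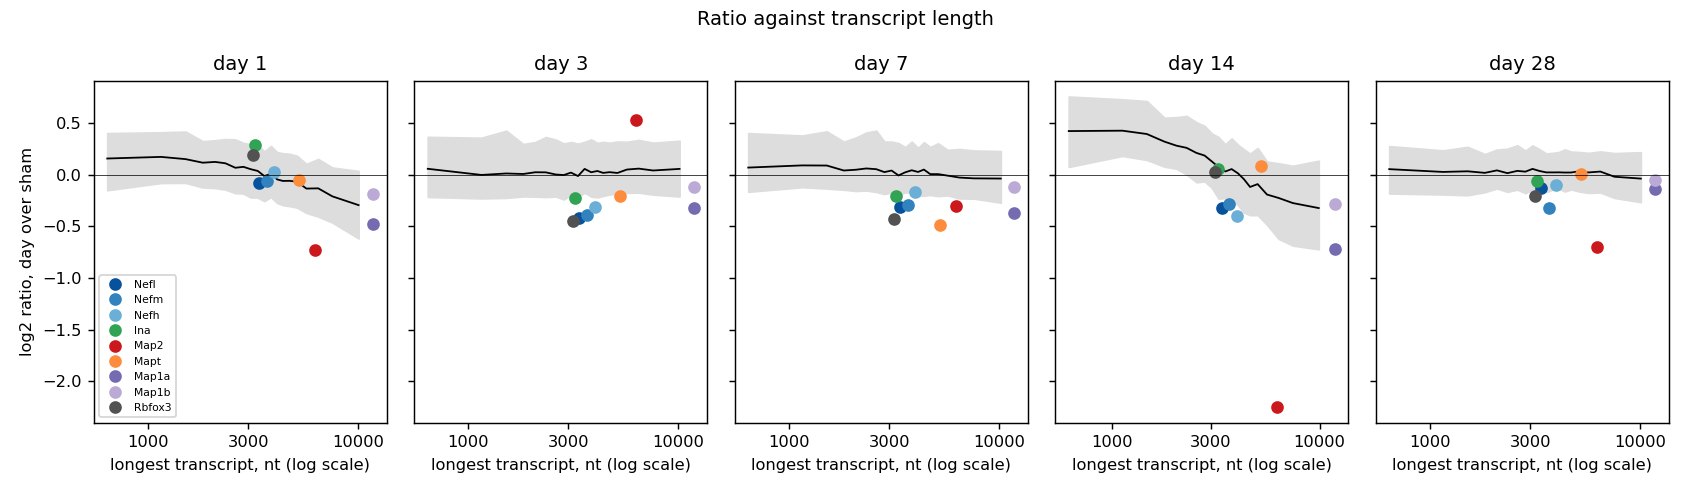
Log2 ratio to the sham library (y axis) against the length of the longest annotated transcript in nt (x axis, log scale), 1 panel per day, with the median of 20 length bins of all genes as a black line and their quartiles in grey. Long genes lie lower on day 1 and day 14; Map2 lies at -2.25 on day 14, where the median of its bin is -0.22.

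The value of Map2 is a sum over transcripts of different build, and these did not move together. Most Map2 message in the control contained the 3741-nt exon at chr1:66412407-66416147, which codes for the long projecting arm of the high molecular weight protein. Transcripts with this exon were at 81.3 FPKM in the control and at 39.0, 49.0, 62.7, 21.9 and 44.1 FPKM from day 1 to day 28. All 5 stroke libraries were below the control, which was 2.08-fold higher than day 1, 1.66-fold higher than day 3, 1.30-fold higher than day 7, 3.71-fold higher than day 14 and 1.84-fold higher than day 28. The short transcripts, which skip the exon and those beside it, were at 19.9 FPKM in the control, 26.0 on day 1, 107 on day 3, 18.2 on day 7 and 21.6 on day 28, and were not listed on day 14. The short form alone thus was high on day 3, and the long form was lower than in the control at thon day too.

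As a share of both forms, the long form was 80.3% in the control, 60.1% on day 1, 31.4% on day 3, 77.5% on day 7, 100% on day 14, where the short form was not listed, and 67.2% on day 28. The day 3 share was lower than the control by 49.0 percentage points, and 2.50% of the 4995 alternative exons and exon blocks compared moved as far. With Map2 taken as its long form only, a measure added after the values were seen, its log2 ratios were -1.06, -0.73, -0.37, -1.89 and -0.88 from day 1 to day 28.

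The 93-nt exon printed above, which codes for an additional microtubule-binding repeat, was at 0.42 FPKM in the control and 0.29, 101.5, 0.61, 0.05 and 0.47 FPKM from day 1 to day 28. Transcripts that skip it were at 102.2 FPKM in the control and 65.0, 55.9, 81.8, 23.3 and 66.8 FPKM from day 1 to day 28. Inclusion was therefore 64.5% on day 3 and between 0.20% and 0.73% in the other 5 libraries. Of the 4995 exons compared, 1.06% moved as far as this exon on day 3. The observation rests on 1 library, and the FPKM of forms are estimates from shared reads, so a different division of the reads among forms was not tested.

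The starts of Map2 showed the same division. They are events from the same libraries and the same FPKM estimates, so they are not an independent measurement of it. The start at base 66251647 was at 19.6 FPKM in the control and at 25.7, 107 and 17.7 FPKM on day 1, 3 and 7, was not listed on day 14 and was at 21.4 FPKM on day 28, close to the short form in each library. The start at base 66321719 with the shorter first exon was at 81.8, 39.1, 49.3, 63.1, 21.9 and 44.4 FPKM, close to the long form. The upstream start, whose promoter is shown above, was at 9.17 FPKM in the control, 2.59 on day 1, 0.14 on day 3, 7.38 on day 7, 0.29 on day 14 and 0.67 on day 28. The control and day 7 libraries were high at this start and the other 4 were low. Map2 had 26 or 27 events listed in every library except day 14, where it had 16, and no event of the type transcript end in any library.

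The listed forms of Rbfox3 differed from the control most on day 1. The short form of its exon was at 77.0 FPKM in the control and at 53.4, 62.5, 56.1, 78.8 and 62.3 FPKM from day 1 to day 28. The 181-nt form was at 9.97 FPKM in the control and at 49.0, 2.21, 9.13, 12.5 and 15.3 FPKM. The long form was 47.9% of both on day 1, 3.41% on day 3 and 11.5% to 19.7% in the other 4 libraries. As for Map2, the day 1 value rests on 1 library and on FPKM estimated from shared reads. This pair of forms was not among the exons compared over all genes, so no share over all exons stands beside it.

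A further exon of Rbfox3, of 40 nt at chr11:118610159-118610198, was wholly coding in none of the 5 annotated transcripts that contain it. This exon was skipped in transcripts at 48.5 FPKM on day 1, 7.11 on day 28, 2.13 on day 3 and less than 0.01 FPKM in each of the other 3 libraries. Its inclusion was 52.6% on day 1 and at least 90.8% elsewhere. Of the 4811 exons compared on day 1, 2.68% moved as far. The 48.5 FPKM of the skipping transcripts was close to the 49.0 FPKM of the 181-nt form on day 1. Whether these are the same transcripts was not tested.

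**Figure D4:**
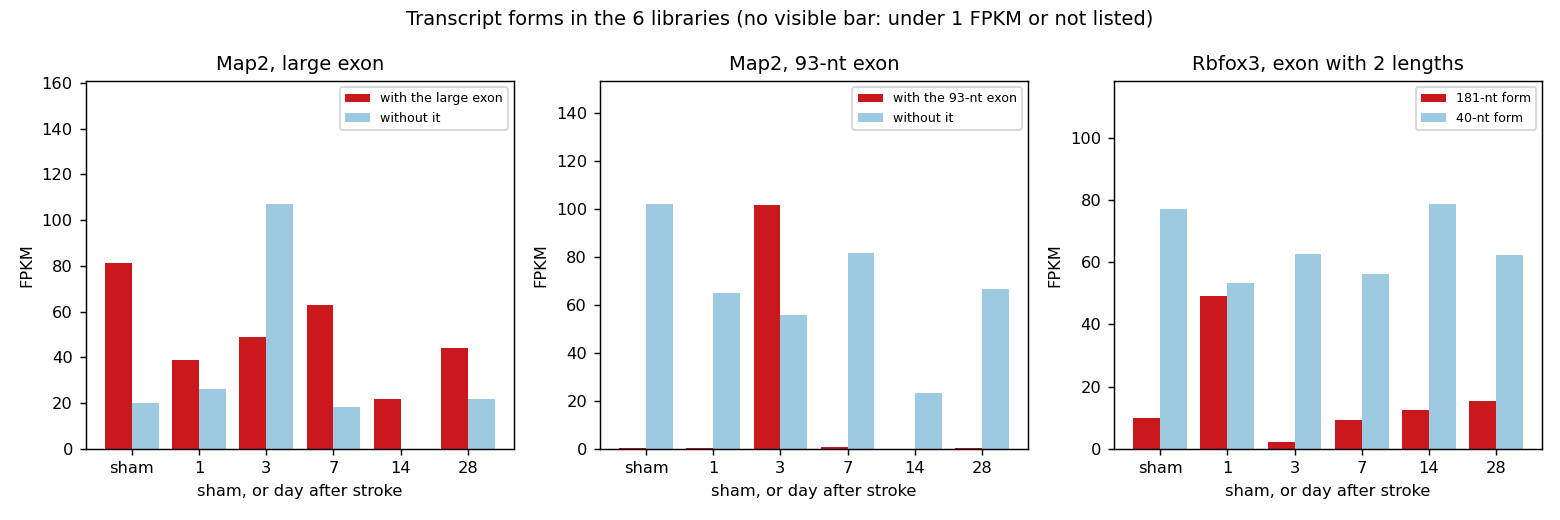
FPKM of paired transcript forms (y axis) in the sham library and at each day (x axis), for the 3741-nt exon of Map2, the 93-nt exon of Map2 and the exon of Rbfox3 with forms of 181 and 40 nt; each bar is 1 library, and a form without a visible bar was under 1 FPKM or not listed. The short form and the 93-nt exon of Map2 are high on day 3 alone, and the 181-nt form of Rbfox3 on day 1.

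In Mapt and Map1a the leading forms were the same in all libraries and the minor forms differed. Mapt transcripts without the paired 87-nt exons of the amino-terminal region (chr11:104287123-104287209 and chr11:104289908-104289994) were at 74.3 FPKM in the control and at 67.7, 64.2, 51.4, 79.4 and 76.3 FPKM from day 1 to day 28, most of the level of the gene in each library. Transcripts with both exons were at 1.89, 5.48 and 2.88 FPKM in the control and on days 1 and 3, not listed on days 7 and 14, and at 1.40 FPKM on day 28. Mapt transcripts with the first of these exons alone were at 0.01 FPKM in the control and 1.72, 0.01, 3.66, 2.73 and 0.01 FPKM from day 1 to day 28. The 198-nt exon at chr11:104305212-104305409 was at 4.12, 7.25 and 3.40 FPKM in the control and on days 1 and 3, and was not listed later. The 759-nt exon, which is known from the long tau of peripheral nerve, was at 1.88, 1.95 and 2.88 FPKM in the control and on days 1 and 3, and was not listed later. A 711-nt form of this exon was listed on day 1 alone, at 3.53 FPKM, in addition to the 759-nt form. A Mapt start at base 104233101 was listed on day 28 alone, with 9.34% of the summed starts. The 8104-nt exon of Map1a was included at 99.87% to 100% in all libraries, and its upstream start held 10.4% of the summed starts in the control, 14.5%, 5.09% and 15.9% on days 1, 3 and 7, and 15.1% on day 28, and was not listed on day 14.

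Over Map2, Mapt, Map1a and Rbfox3, 2 of the 12 exons and exon blocks compared moved by 20 percentage points or more on day 1 (the Map2 block of the large exon and the Rbfox3 exon), against 12.7% of all exons compared. On day 3 it was 2 of 12 (both in Map2), against 12.9%. It was 0 of 13 on day 7, 0 of 12 on day 14 and 0 of 12 on day 28, against 11.6%, 13.8% and 11.5%. An alternative form that was not listed was taken as 0 in these shares. Nefl, Nefm, Nefh, Ina and Map1b had no splicing event in any library.

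The remaining intermediate filaments and their linkers were divided. Their medians were 0.62, 0.78, 0.30, 0.58 and 0.44 over 7 to 9 genes, led by Vim (log2 ratio 3.42 on day 3) and Gfap (3.02 on day 3), the filaments of reactive astrocytes. Of these genes 5 of 9 were higher by 1.5-fold on days 1 and 3, 4 of 9 on day 7, and 3 of 7 on days 14 and 28. Of all genes, 10.6%, 14.7%, 14%, 17.6% and 8.33% were higher in order of time. Lower by 1.5-fold were 10.4%, 6.25%, 5.77%, 11.4% and 6.29% of all genes. A single gene was lower by 1.5-fold on each day but day 3: Prph, the peripherin of peripheral neurons, named after its values were seen, on days 1, 7 and 14 (-0.61, -1.01 and -0.65), and Lmna, a nuclear lamin, on day 28 (-0.61). Prph was near the floor, at 1.24 FPKM in the control and 0.78, 0.83, 0.57 and 0.75 FPKM on days 1, 3, 7 and 14. It reached the 1 FPKM needed for a comparison in the control alone, and was not listed on day 28. Gfap was at 85.8 FPKM in the control and 698 FPKM on day 3, so that its level passed the summed level of the neurofilament subunits in all stroke libraries but day 28.

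Of 13 other tubulins looked up, the 11 that could be compared stayed close to the control, with medians of 0.14, -0.01, -0.09, 0.22 and -0.05. The abundant Tuba1a, an alpha-tubulin of neurons, was at 632 FPKM in the control and between 614 and 697 FPKM after stroke. Tubb6, a beta-tubulin of low level in brain, was the exception among these 11, at 1.72 FPKM in the control and 11.7 FPKM on day 3. It was the only 1 of 11 past 1.5-fold, on days 1, 3, 7 and 14, where 10.6%, 14.7%, 14% and 17.6% of all genes were higher by 1.5-fold. Tuba1b, named after its values were seen, had no ratio because it was not listed in the control. It was at 1.25, 16.5, 1.04 and 0.43 FPKM on days 1, 3, 7 and 14, and was not listed on day 28.

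Among 27 or 28 further microtubule-binding proteins the medians were -0.05, -0.26, -0.20, -0.21 and -0.10. On day 14, 9 of 28 were lower by 1.5-fold, against 11.4% of all genes, and 2 of 28 higher, against 17.6%. Dpysl5, of the family that guides growing axons, was lowest on day 14 (-2.05), while the abundant microtubule destabilizers Stmn1 and Stmn3 were at -0.10 and 0.08. Among 13 axonal motors 5 were lower by 1.5-fold on day 14 and 2 were higher, beside the same shares of all genes. Kif5a, a neuronal kinesin that carries neurofilaments, was at 564 FPKM in the control and 272 FPKM on day 14 (-1.05), and Dync1h1, the dynein heavy chain, was at 28.4 and 139 FPKM (2.29).

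Of 10 genes of the membrane skeleton, the spectrins, ankyrins and adducins under the axonal membrane, 4 were lower by 1.5-fold on day 14. The share of all genes was 11.4%, and Ank2 was the lowest of the 10 (-1.46). All 10 were below 0 on day 7, against 46.8% of all genes, with a median of -0.27. Most of these messages are long, and on day 14 long transcripts were lower in general, so that these values stand beside the length trend given above. The same limit applies to the microtubule-binding proteins and the motors, such as Kif5a (6295 nt). The longer Dync1h1 (14342 nt) was high in the day 14 library alone, at 139 FPKM against 14.1 to 28.4 FPKM in the other libraries. Among 16 kinases, phosphatase subunits and proteases that act on tau and neurofilaments, the medians were 0.10, -0.17, -0.18, 0.10 and -0.07. Cdk5r1, the activator of the tau kinase Cdk5, was at 6.97 FPKM in the control and 37.8 FPKM on day 3 (2.42). Ttbk2, a tau-tubulin kinase with a long message (11152 nt), was at 10.1 FPKM in the control and 1.22 FPKM on day 14 (-2.95).

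**Figure D5:**
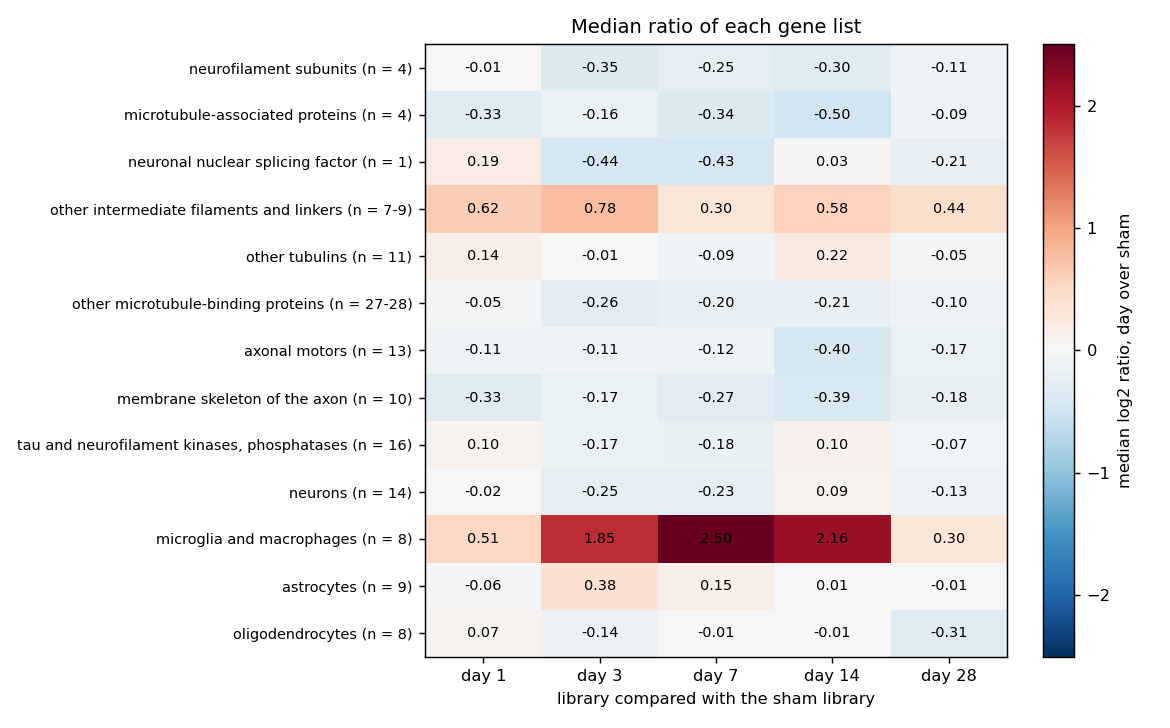
Median log2 ratio to the sham library for each gene list (rows, with the number of genes compared) at each day (columns), the colour running from blue (lower) to red (higher). The neurofilament subunits run from -0.01 on day 1 to -0.35 on day 3, and the microglial and macrophage markers reach 2.50 on day 7.

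The markers of microglia, macrophages and fibroblasts had larger ratios than the neuronal genes on days 3, 7 and 14. Of 8 markers of microglia and macrophages, 7 were higher by 1.5-fold on days 3, 7 and 14, with medians of 0.51, 1.85, 2.50, 2.16 and 0.30 and summed levels of 173 FPKM in the control, 236, 555, 850 and 695 on days 1 to 14 and 209 FPKM on day 28. All 6 fibroblast markers compared were higher by 1.5-fold on days 3, 7 and 14. Of all genes, 14.7%, 14% and 17.6% were higher by 1.5-fold on these days. The astrocyte and oligodendrocyte medians stayed between -0.31 and 0.38, though not always on the side of the neuronal ones. On day 3 the astrocyte median was 0.38 and that of the neuron markers -0.25. Endothelial and pericyte medians were 0.64, 0.07 and 0.26 on days 3, 7 and 14, over 8, 8 and 7 genes. Those of leukocytes were 1.55, 0.75 and 1.90, over only 3, 2 and 3 genes. FPKM are shares of a library, and the part of these other cells in the lower values of the neuronal genes was not tested.

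The genes outside the set whose 5 log2 ratios lay nearest to the mean of the neurofilament subunits were Grik5, Grin1, Tbr1, Ywhah and Bnip3, with root mean square differences of 0.02 to 0.04 among 10147 genes searched. Grik5 and Grin1 code for glutamate receptor subunits, and Tbr1 for a transcription factor of cortical projection neurons. Nearest to the mean of the microtubule-associated proteins were Celsr2, Zfp326, Zc3h7b, Ppp1r9a and Agap2, with differences of 0.07 to 0.09. This mean was the profile of no single gene, since Map2 differed widely from the others. On day 14 the mean was -0.79, with Map2, Mapt, Map1a and Map1b at -2.25, 0.09, -0.71 and -0.28. On day 3 it was -0.03, with the same genes at 0.53, -0.21, -0.32 and -0.12. Each profile rests on 5 ratios that share 1 control library.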

How the data were processed

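The authors pooled the RNA of 3 mice per group, made poly(A)-selected, strand-specific libraries and deposited FPKM per event. The submitters' processing notes name Trimmomatic 0.30, HISAT2 2.0.1, HTSeq 0.6.1 and the build mm10, and the caller of the events is not given in the sources used here. Per the labels, samples were sequenced to 33.6 M reads on average. How this was divided among the libraries is not known, and counting error can therefore not be given. Groups follow the treatment label. From 1516 to 1898 repeated rows per library were dropped.

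Events were assigned to genes by the Ensembl identifier in the tables. The gene value was the largest of the summed starts, the summed ends and any single event. Genes listed in both libraries with at least 1 FPKM in either were compared with a pseudocount of 0.1. With 1 library per group no test, SD or p-value was computed. Transcript length was that of the longest GENCODE M21 transcript, and the correction subtracted the median of 20 bins. An exon's inclusion is its FPKM with over FPKM with and without, where the sum is at least 5 FPKM in both libraries. Fold calls, the length correction and the arithmetic of the gene values were checked on simulated data. Inclusion shares were not tested in this way. Protein sequences were not analysed here, and 1 gene that the rule below names is not reported here. Python 3.11.15, numpy 2.4.6, pandas 2.3.3 and matplotlib 3.10.9 were used.

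The genes named are the 10 of the set, from each list the 2 of highest mean FPKM and those of largest and smallest ratio, and the 5 nearest profiles to each of 2 group means. Prph and Tuba1b were named in addition, after their values were seen. The set, the lists and the gene value were chosen with earlier results of these data known.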

Additional observations from a re-analysis of the deposited data

Results flagged for a closer look

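On day 7 a transcript start assigned to Nefh was listed on the strand opposite to the gene at 0.445 FPKM, with an end of the same value, and the control library listed no such start. It is part of the Nefh value of that day, 12.1 FPKM with it and 11.6 FPKM without it. The start covers chr11:4936308-4937121 of mm10, just beyond the annotated end of Nefh. The end covers chr11:4941593-4941929, inside the annotated span of Nefh. Neither had a counterpart in any other library. The start made up 3.69% of the summed Nefh starts on day 7.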

How the results depend on the processing

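In all, 13 settings were tried, of which 11 were set at the start and 2 were added after the data were seen (Map2 as its large-exon transcripts only, and the set without Map2). Of 575 alternative log2 ratios of single genes, 574 differed from the reported value by less than 1.5-fold. The exception was Map2 on day 3, which went from 0.53 to -0.73 with its large-exon transcripts only. Of the 575, 14 had the other sign; apart from Map2 all were 0.28 or smaller in size as reported, such as Map1b on day 14, which went from -0.28 to 0.04 after length correction. Of 325 alternative counts and medians, 313 were unchanged or within 1.5-fold. The others all turn on Map2 or Map1a. The sum of transcript ends gave no value for Map2, so that 0 genes were lower by 1.5-fold on day 1, 1 on day 14 and 0 on day 28, and 0 by 2-fold on day 14; without Map2 the counts were the same, 0, 1, 0 and 0. After length correction 1 gene, Map2, was lower by 1.5-fold on day 14. With the large-exon form of Map2, 1 gene was lower by 1.5-fold on day 3 and 1 by 2-fold on day 1. With upper quartile scaling 1 gene, Map2, was higher by 1.5-fold on day 3. The median of the set ranged from -0.09 to 0.02 on day 1, -0.35 to -0.25 on day 3, -0.33 to -0.24 on day 7, -0.39 to -0.28 on day 14 and -0.15 to -0.11 on day 28. The median log2 ratio over all genes was 0.10 on day 14 as deposited, and values of thon day can be read relative to it. No paired analysis was possible because each group has 1 library and the labels give no replicate numbers. Every ratio shares the control library, and none has a replicate.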
